A study of Mus musculus with 9 samples.

Results

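The genes examined were 8 members of the NLRP family of mouse oocytes, Nlrp4a, Nlrp4b, Nlrp4c, Nlrp4e, Nlrp9a, Nlrp9b, Nlrp9c and Nlrp14, chosen by name among the 28052 genes of the deposited counts. All 8 were present and all passed the filter on low counts. RNA was measured in 9 samples of growing oocytes at 18 days postpartum (dpp), 3 each from XX, XO, and XY females on the C57BL/6J (B6) background, and each sample was a pool of 30 oocytes, 10 of 50–55 µm and 20 of 55–60 µm in diameter. XY females, which are sex-reversed, and their XX littermates were offspring of B6.YTIR males and B6 females. XO females were offspring of B6 females and Paf carrier males, whose stock had been moved from C3H/HeSnJ to B6 by backcrossing, so that XO genotype and parental stock cannot be told apart. Samples are named by genotype and replicate number (XX1 to XX3, XO1 to XO3, XY1 to XY3), and the methods describe them as biological triplicates without saying which females a pool came from.

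NLRP proteins carry an N-terminal pyrin domain, a nucleotide-binding NACHT domain and leucine-rich repeats. Some, such as NLRP3, assemble inflammasomes in immune cells. Others are maternal factors, whose mRNAs are stored by the growing oocyte and whose proteins act in the egg and the early embryo, and NLRP5 (MATER) is a founding component of the subcortical maternal complex beneath the egg membrane. The genes examined here belong to the oocyte branch, and in rodents Nlrp4 and Nlrp9 have each multiplied into several copies.

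All 8 genes lie on chromosome 7 (GRCm38, GENCODE vM21). Nlrp9c (ENSMUSG00000040614.14) extends from 26322473 to 26403700 on the minus strand. It is followed by Nlrp4a (ENSMUSG00000040601.13) from 26435113 to 26476142 and by Nlrp9a (ENSMUSG00000054102.15) from 26535023 to 26575615, both on the plus strand. Nlrp9b (ENSMUSG00000060508.16) lies from 19991465 to 20073306, and Nlrp4e (ENSMUSG00000045693.8) from 23301192 to 23362277, 23612 bp from Nlrp5. Nlrp4c (ENSMUSG00000034690.13) lies from 6045161 to 6105150, Nlrp4b (ENSMUSG00000034087.14) from 10687789 to 10730168, and Nlrp14 (ENSMUSG00000016626.10) stands apart from 107166990 to 107198102. These last 5 genes are all on the plus strand.

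The start of the coding sequence shows how close the copies are. The first 90 coding bases of the annotated transcripts are given from 5′ to 3′, with capitals where a base differs from the first gene of its family.
Nlrp9a: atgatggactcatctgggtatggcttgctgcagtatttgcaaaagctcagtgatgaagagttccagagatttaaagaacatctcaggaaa
Nlrp9c: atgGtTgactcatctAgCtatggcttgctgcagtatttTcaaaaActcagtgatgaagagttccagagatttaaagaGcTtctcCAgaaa
Nlrp9b: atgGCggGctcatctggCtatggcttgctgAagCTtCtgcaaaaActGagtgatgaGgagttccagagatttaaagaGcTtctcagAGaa
Nlrp4a: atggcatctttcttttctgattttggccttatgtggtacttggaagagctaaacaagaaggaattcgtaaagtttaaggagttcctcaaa
Nlrp4c: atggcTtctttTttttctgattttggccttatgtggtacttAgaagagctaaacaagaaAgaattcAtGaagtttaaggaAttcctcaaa
Nlrp4e: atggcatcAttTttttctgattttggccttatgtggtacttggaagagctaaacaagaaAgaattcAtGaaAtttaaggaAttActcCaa
Nlrp4b: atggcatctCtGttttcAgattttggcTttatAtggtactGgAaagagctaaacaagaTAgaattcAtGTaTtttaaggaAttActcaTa

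From Nlrp9a, Nlrp9c differed at 10 and Nlrp9b at 15 of these bases. From Nlrp4a, Nlrp4c differed at 7, Nlrp4e at 9 and Nlrp4b at 16. Over the whole coding sequence the closest pair was Nlrp4c and Nlrp4e, identical at 93.9% of aligned bases. Nlrp9a and Nlrp9c were identical at 87.7%, Nlrp9a and Nlrp9b at 84.2%, and Nlrp4a and Nlrp4c at 86.3%, whereas Nlrp4a and Nlrp4b were identical at 78%. Between the families the values were lower, with 58.2% for Nlrp4a and Nlrp9a and 59.8% for Nlrp4a and Nlrp14.

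Copies this close bear on the counts, because a read that fits several genes cannot be assigned with certainty. Of all 50-base windows within the first 500 bases of the Nlrp4e transcript, 59.6% occurred unchanged in the transcript of another gene, most of them in the annotated genes Gm16443, Gm8486, Gm8685, Gm8728 and Gm4541. For Nlrp4c the share was 20.4%. It was 0% for Nlrp4a, Nlrp4b, Nlrp14 and the 3 Nlrp9 genes. Within the first 500 bases the longest run that Nlrp4c and Nlrp4e share was 120 bases. Runs shared with the Gm genes were not measured. Reads were 150 bases long and in pairs, and how the counting treated reads of several genes is not given in the sources used here, so the levels of Nlrp4e and, to a lesser degree, Nlrp4c are uncertain. The 5 Gm genes themselves had means of 2.60 to 5.63 normalized CPM (Gm4541 and Gm16443, respectively), beside 71.2 for Nlrp4e.

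RefSeq gives a promoter sequence for 7 of the 8 genes (GRCm38.p6), and Nlrp14 was not among them. The 250 bases before the transcription start were searched on both strands. The stretches below are shown because several genes share them. The promoter sequences of Nlrp9b and Nlrp9c were identical to that of Nlrp9a at 60.6% and 96.1% of aligned bases, respectively. In transcript level, Nlrp9a correlated with Nlrp9b (Pearson's r = 0.994) and with Nlrp9c (0.993). Whether shared promoter sequence has a part in the levels was not tested. CCAAT is the box known to be bound by the factor NF-Y, and CANNTG is the E-box, the type of element bound by basic helix-loop-helix factors such as the oocyte factor FIGLA. Capitals mark a CCAAT box joined to the E-box CACATG.
Nlrp4a: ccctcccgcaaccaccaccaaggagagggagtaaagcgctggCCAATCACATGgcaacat
Nlrp4b: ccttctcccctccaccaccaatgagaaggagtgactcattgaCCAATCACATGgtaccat
Nlrp4c: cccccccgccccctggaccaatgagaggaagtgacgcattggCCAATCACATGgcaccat
These stretches lie on the plus strand at chr7:26435522-26435581 (upstream of the second RefSeq start of Nlrp4a, in its first annotated intron), chr7:10687697-10687756 and chr7:6045101-6045160. Their E-box begins 45, 49 and 13 bases before the start, respectively. The combined motif CCAATCACATG was chosen after the sequences were read. It occurred in the promoters of 3 of the 7 genes and in 11 of all 32851 RefSeq promoters (0.0335%). The 11 count every annotated start and include those of these 3 genes.

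In the next pair, capitals mark the E-box CAGGTG and every CCAAT box.
Nlrp9a: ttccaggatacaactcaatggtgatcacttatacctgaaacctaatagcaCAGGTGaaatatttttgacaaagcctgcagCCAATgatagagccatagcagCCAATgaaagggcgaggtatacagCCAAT
Nlrp9c: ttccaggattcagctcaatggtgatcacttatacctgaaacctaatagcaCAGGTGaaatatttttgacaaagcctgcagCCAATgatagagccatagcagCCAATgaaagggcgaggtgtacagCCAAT
They lie at chr7:26534892-26535021 on the plus strand and chr7:26403746-26403875 on the minus strand, and differ at 3 of 130 bases. Each holds 3 CCAAT boxes. Counting a gene if any of its RefSeq starts matched, an E-box was found for 6 of the 7 genes and CCAAT for 6 of 7. Of all RefSeq promoters, with each start counted singly, 66.2% held an E-box and 33.8% CCAAT. The units differ, since Nlrp4a and Nlrp4b each have a second start. Nlrp4e was the gene without an E-box and Nlrp9b the one without a CCAAT box at any start. Nlrp4a held CCAAT only before its second start, not before its annotated gene start. The RefSeq start of Nlrp9b, however, lies 16558 bases inside the GENCODE gene, so the sequence searched for it is not upstream of the annotated gene start. TAATTG, the core known to be bound by the homeodomain factor NOBOX, was found in Nlrp9a and Nlrp9b, against 7.17% of all, and TATAAA in Nlrp9b, against 12.4% of all. A match describes the sequence and does not show that a factor binds there.

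Smart-seq3 libraries carry a random barcode, the unique molecular identifier (UMI), at the 5′ end of every cDNA, and counting UMIs removes the copies that PCR makes. Genes received 2130145 to 3157338 UMIs per sample. Levels are given in normalized CPM, the UMI count scaled to the total of gene UMIs and divided by a factor that the authors derived from ERCC spike-in RNAs. In this unit 1 UMI was worth 0.302 to 0.565. The factor was 1.125 to 1.247 in XX, 0.7029 to 0.8465 in XO and 1.01 to 1.156 in XY samples. Dividing by it thus raised XO levels relative to XX levels. The factor was computed among the spike-ins alone and does not carry their amount relative to oocyte RNA. Spike-ins were 0.204% of UMIs in XX3 (factor 1.247) and 0.862% in XY1 (factor 1.01). Scaling by spike-in totals instead is reported further below. As a check of the labels, 7 Y-linked genes together had 1518 to 1634 UMIs in XY samples and 1 to 4 in XX and XO samples. All 12 oocyte markers were detected, and their summed level was 24395–25646 normalized CPM in XX, 16282–38870 in XO pools and 17884–24889 in XY samples. The 9 measured granulosa cell markers of 13 listed summed to 48.0–92.1 normalized CPM, and none of the 4 haemoglobin genes was in the counts. Endothelial markers summed to 19.3–50.6 in XX and 28.4–59.2 in XY samples, but to 16.6, 110 and 132 in XO1 to XO3. Nearly all of the XO sums was 1 gene, Pecam1, at 14.5, 109 and 132 in XO1 to XO3. Cdh5 was at 1.55, 0.517 and 0.565 and Kdr at 0.518, 0.00 and 0.00, so these did not rise with it. Immune markers summed to 1.04–22.6 and theca and stroma markers to 1.13–4.65 normalized CPM. The highest immune sum, in XO3, was mostly Csf1r, at 20.9.

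Nlrp14 was by far the most abundant of the 8. Its mean level was 16835 normalized CPM, second among all 28052 genes, and first in XX oocytes. NLRP14 is a maternal protein needed for early embryonic development and has been reported to interact with UHRF1 and the mitochondrial exchanger encoded by Slc8b1. Nlrp14 was at 22519, 23043 and 15006 normalized CPM in XX1 to XX3, at 14812, 13313 and 13465 in XO1 to XO3, and at 18348, 19465 and 11543 in XY1 to XY3. All XX samples were above all XO samples, though XX3 exceeded XO1 by little in this unit, and the XY samples spanned both. As a share of gene UMIs, without the spike-in factor, Nlrp14 was at 1.87% in XX3 and 1.24% in XO1.

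Divided by transcript length, the mean level of Nlrp14 was 5145 normalized CPM per kb. Next came Nlrp9c with 735, Nlrp9b with 594 and Nlrp4a with 495 normalized CPM per kb. They were followed by Nlrp4b with 323 and Nlrp9a with 274, while Nlrp4c, with 38.5, and Nlrp4e, with 21.1, were the lowest. The neighbours Nlrp9b and Nlrp4a kept this order per kb in 8 of 9 samples, as did Nlrp4b and Nlrp9a, so neither pair was separated in every pool. Nlrp14, Nlrp4c and Nlrp4e kept their places in every sample. Since 5′ UMIs count each transcript once whatever its length, the levels without division are the more direct measure of abundance. In normalized CPM without division, Nlrp4a was above Nlrp9b in 8 of 9 samples, the reverse of the order per kb. In that unit the means were 2363 for Nlrp9c, 2110 for Nlrp4a, 1989 for Nlrp9b, 1073 for Nlrp4b, 915 for Nlrp9a, 139 for Nlrp4c and 71.2 for Nlrp4e, and 6 of the 8 genes ranked within the top 158 of all genes.

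The Nlrp9 genes were next examined sample by sample. NLRP9B is known from the intestine, where it forms an inflammasome upon rotavirus infection, while in the ovary Nlrp9 transcripts are oocyte-specific. Nlrp9a was at 824, 822 and 503 normalized CPM in XX1 to XX3, at 2640, 544 and 530 in XO1 to XO3, and at 1232, 696 and 442 in XY1 to XY3. Nlrp9b was at 2019, 1950 and 1090 in XX, 5377, 1155 and 1171 in XO pools, and 1441 in XY2 between 2732 in XY1 and 966 in XY3. Nlrp9c was at 2012, 2154 and 1268 in XX, 6214, 1603 and 1443 in XO pools, and 3302, 1953 and 1315 in XY samples. For each of the 3 genes XO1 was the highest of all samples, followed by XY1, and the genotypes overlapped.

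The Nlrp4 genes had the same shape. NLRP4E has been implicated in preimplantation development, whereas the roles of the other Nlrp4 copies in oocytes are less well defined. Nlrp4a was at 2346, 2316 and 1470 normalized CPM in XX, 4744, 1169 and 1202 in XO pools, and 2954, 1716 and 1075 in XY samples. Nlrp4b was at 1191, 1229 and 781 in XX, 2620, 621 and 555 in XO pools, and 1335, 774 and 555 in XY samples. For both genes XO1 was again the highest and XO2 and XO3 were below XX1 and XX2.

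The rarer copies differed somewhat. Nlrp4c was at 171, 167 and 95.4 normalized CPM in XX, 270, 90.0 and 59.3 in XO pools, and 198, 125 and 78.5 in XY samples. Nlrp4e was at 95.1, 99.4 and 69.8 in XX, 163, 29.5 and 32.2 in XO pools, and 62.7, 48.8 and 40.4 in XY samples. All XX samples were above all XY samples for Nlrp4e, while for Nlrp4c the genotypes overlapped.

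**Figure D1:**
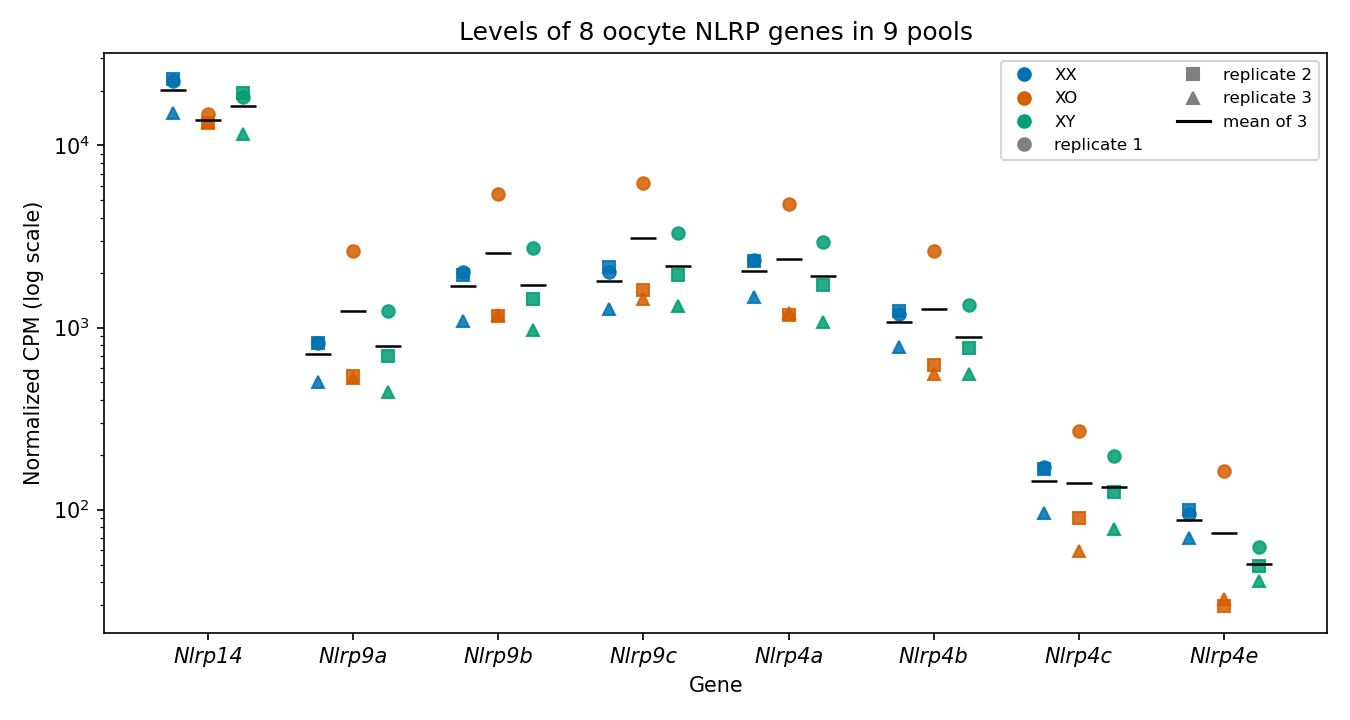
Level of each of the 8 genes in normalized CPM (log scale) in the 9 pools, coloured by genotype, with the replicate number as the shape and a bar at the mean of 3. XO1 is the highest pool for every gene but Nlrp14, for which the XX pools (15006 to 23043) lie above the XO pools (13313 to 14812).

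One pool thus stood apart. In XO1 the 7 genes other than Nlrp14 were 3.62 (Nlrp4c) to 5.29 times (Nlrp4e) the mean of XO2 and XO3, whereas Nlrp14 was 1.11 times that mean. XO1 also had the lowest summed oocyte markers, 16282 normalized CPM against 31569 in XO2 and 38870 in XO3. The markers did not all go this way. Zp2 was at 4919 in XO1 against 14837 and 16248, whereas Oosp1 was at 9137 against 2494 and 2495. The other markers were lower in XO1 than in XO2 and XO3. Among XY samples, the 7 genes together were 2.64 times higher in XY1 than in XY3. XY1 had the lowest marker sum of its genotype at 17884, although Oosp1 was highest in XY1, at 5572 against 3195 and 2527. XX3 and XY3 were the lowest of their genotype for all 8 genes. All pools were made from the same numbers of oocytes of the same size classes. Whether the markers have a part in these differences was not tested.

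The 8 genes together held 3.51%, 3.71% and 2.53% of all gene UMIs in XX samples, 3.09%, 1.57% and 1.3% in XO pools, and 3.05%, 3.03% and 1.68% in XY samples. Nlrp14 alone made up 72.2%, 72.5% and 74% of these UMIs in XX, 40.2%, 71.9% and 72.9% in XO pools, and 60.8%, 74.2% and 72.1% in XY samples. The share of Nlrp14 was thus nearly constant but for XO1 and XY1. None of the 8 shares differed among genotypes by the exact permutation test at p below 0.05 (lowest p = 0.193, for Nlrp9c, two-sided, over the 280 ways to divide 9 samples into 3 genotypes, Benjamini-Hochberg adjusted p = 0.789 over 8 shares). Taken as log ratios to the mean of the 8 genes, Nlrp9c (p = 0.00714) and Nlrp9a (p = 0.0214) were below 0.05 by the exact permutation test. These were 2 of 8, and 0 after adjustment over the 8, against 4.96% of the other tested genes set against the same mean. The 8 genes are part of that mean and the others are not, so the 4.96% is not a matched reference.

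Transcript levels were compared between genotypes by edgeR's quasi-likelihood F test on the UMI counts of all 10993 genes that passed the filter, with the spike-in factors and a two-sided unadjusted p below 0.05 as the threshold, which is that of the study. Adjusted p-values are by Benjamini and Hochberg over all tested genes. The first question was whether loss of an X chromosome changed these autosomal transcripts. Between XX and XO oocytes 0 of the 8 genes passed, while 18.1% of all tested genes did. The median log2 fold change of XX against XO was −0.23 for the 8 genes and −0.46 for all tested genes.

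Nlrp14 was at 20189 ± 4497 normalized CPM (SD, n = 3) in XX and 13863 ± 825 (SD, n = 3) in XO oocytes, a log2 fold change of 0.54 (95% interval −0.58 to 1.67, adjusted p = 0.561 by edgeR). The groups did not overlap for Nlrp14, as was the case for 16.4% of all tested genes. The 3 Nlrp9 genes had negative values, −0.79 for Nlrp9a, −0.61 for Nlrp9b and −0.77 for Nlrp9c. Those of the Nlrp4 genes were closer to 0, from −0.25 for Nlrp4b to 0.23 for Nlrp4e. All 95% intervals included 0, and the widest, of Nlrp9b, extended from −2.13 to 0.92, so the pools could not show changes within these bounds. Nlrp14 passed as higher in XX oocytes under other scalings, with 1 of 8 genes called by DESeq2 with its own size factors (0.85) against 13.7% of all tested genes, and by edgeR with spike-in totals (1.30) against 3.12%. Both percentages count calls in either direction.

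These values rested on XO1. Without it, all 8 log2 fold changes of XX against XO were positive, from 0.25 for Nlrp9c to 1.51 for Nlrp4e, with a median of 0.69 against −0.45 for all tested genes. Nlrp4e (1.51, unadjusted p = 0.000372 by edgeR) and Nlrp4c (0.95, unadjusted p = 0.0458) then passed as higher in XX oocytes, or 2 of 8 genes against 2.77% of all tested genes in that direction. Both are the copies whose reads are hardest to assign. Nlrp14 was at 0.59 without XO1 and did not pass. This comparison left 2 XO samples.

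The next comparison was between XX and XY oocytes, whose donors came from the same type of cross. Again 0 of the 8 genes passed, against 5.8% of all tested genes, and the median log2 fold change of XX against XY was 0.10 against −0.19 for all. The largest value was 0.80 for Nlrp4e (95% interval −0.55 to 2.15), which was at 88.1 ± 16.0 (SD, n = 3) in XX and 50.7 ± 11.3 (SD, n = 3) normalized CPM in XY oocytes. Its samples did not overlap, as for 15.8% of all tested genes. When XO1 was left out, which leaves the XX and XY samples as they were but alters the shared estimate of the spread and the set of genes tested (11590), Nlrp4e passed as higher in XX oocytes (0.80, unadjusted p = 0.00855 by edgeR), 1 of 8 genes against 2.55% of all tested genes in that direction. It also passed when only XX and XY samples were fitted (unadjusted p = 0.014 by edgeR), in a fit that called 2.52% of all tested genes as higher in XX oocytes. With spike-in totals as scaling Nlrp4e passed too (1.52), where 2.58% of all tested genes were called in either direction. Nlrp14 was at 0.30 (95% interval −0.83 to 1.42), and the remaining 6 genes were between −0.27 for Nlrp9c and 0.26 for Nlrp4b.

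Between XY and XO oocytes, which both carry a single X chromosome, 0 of the 8 genes passed, against 9.93% of all tested genes. With the replicate number as a block the count remained 0, while the genes called rose from 1092 to 1827. The log2 fold change of XY against XO was 0.25 for Nlrp14 (95% interval −0.88 to 1.37), at 16452 ± 4288 (SD, n = 3) normalized CPM in XY oocytes. The other 7 genes had values from −0.65 for Nlrp9a to −0.06 for Nlrp4c, and the median of the 8 was −0.50 against −0.30 for all. Without XO1 all 8 were positive, from 0.30 for Nlrp14 to 0.84 for Nlrp4c, and Nlrp4e passed as higher in XY oocytes (0.71, unadjusted p = 0.0345 by edgeR), 1 of 8 genes against 4.53% of all tested genes in that direction.

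**Figure D2:**
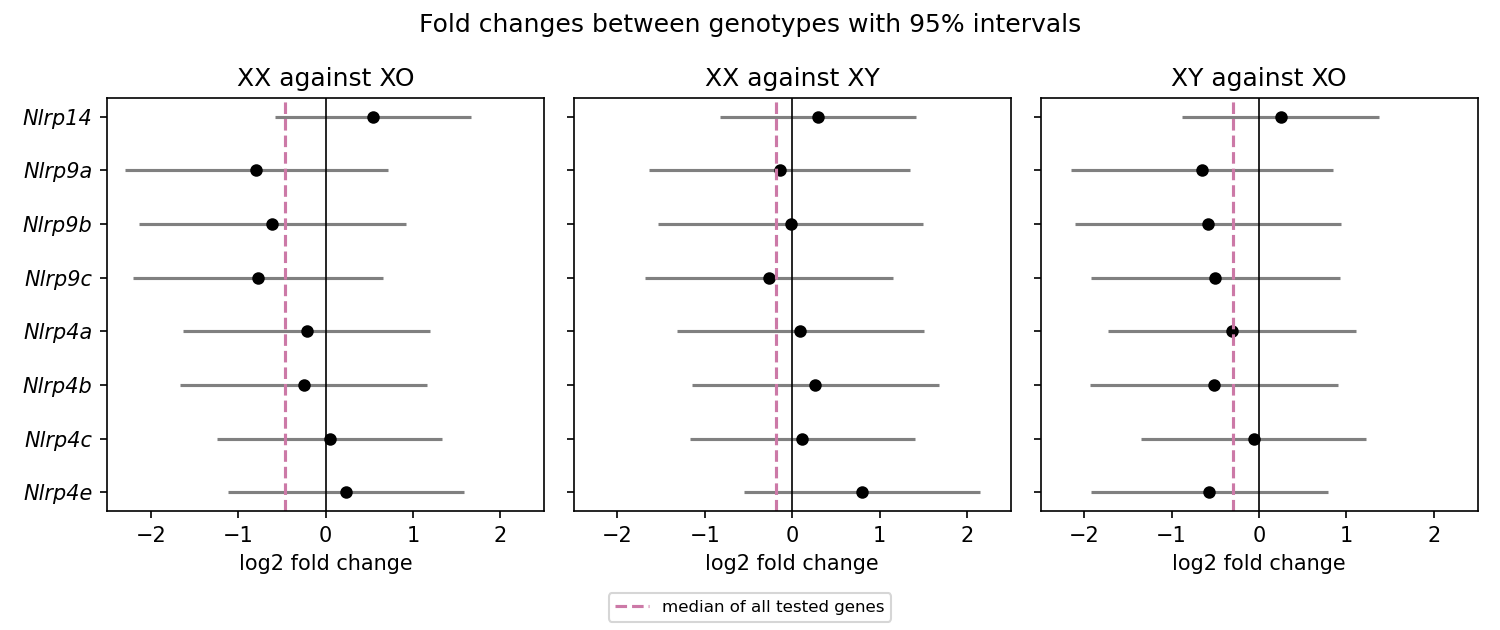
Log2 fold change of each gene in the 3 comparisons (points) with its 95% interval (lines), the first-named genotype over the second, and the median over all 10993 tested genes (dashed). Every interval crosses 0.

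The study entered surrogate variables into a limma model after its own transformation of the counts. A related fit, limma with the default voom transformation and 1 surrogate variable found by sva, gave more calls. XX against XO, Nlrp14 was higher (0.46) and Nlrp9a, Nlrp9b and Nlrp9c were lower (−0.68, −0.54 and −0.72), 4 of 8 genes against 38.4% of all tested genes. XX against XY, Nlrp14 (0.32), Nlrp4b (0.38) and Nlrp4e (0.87) were higher, 3 of 8 genes against 23.5% in either direction. As higher in XX oocytes, 616 of all 10993 tested genes were called. XY against XO, 6 of 8 genes were lower, from −0.40 for Nlrp4a to −0.68 for Nlrp9a, against 21.1% of all tested genes in that direction. The surrogate variable was estimated from the same 9 samples. In the authors' batch-regressed log2 values, Nlrp14 was at 14.22–14.61 in XX, 13.36–13.68 in XO pools and 13.63–14.40 in XY samples, and Nlrp9c at 10.76–10.85, 11.32–11.44 and 10.72–10.96. Nlrp4b was at 10.02–10.06, 10.03–10.11 and 9.49–9.63, so that it was lowest in XY samples in that matrix. No test was run on these values, since the regression sets the spread that is left within a genotype.

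The levels of the 7 genes other than Nlrp14 rose and fell together across the 9 samples. On the log2(normalized CPM + 1) scale, Pearson's r was 0.982–0.994 among the 3 Nlrp9 genes, 0.86–0.989 among the 4 Nlrp4 genes and 0.716–0.979 between the families. Nlrp14 correlated with the 7 others at 0.262–0.593. Without XO1 and XY1, the samples farthest from the median of the 7 genes, the ranges were 0.921–0.987, 0.844–0.979 and 0.534–0.954, and those of Nlrp14 became 0.82–0.986. The low correlation of Nlrp14 thus rested on XO1 and XY1. The points share library, depth and spike-in factor, so these coefficients are a description.

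**Figure D3:**
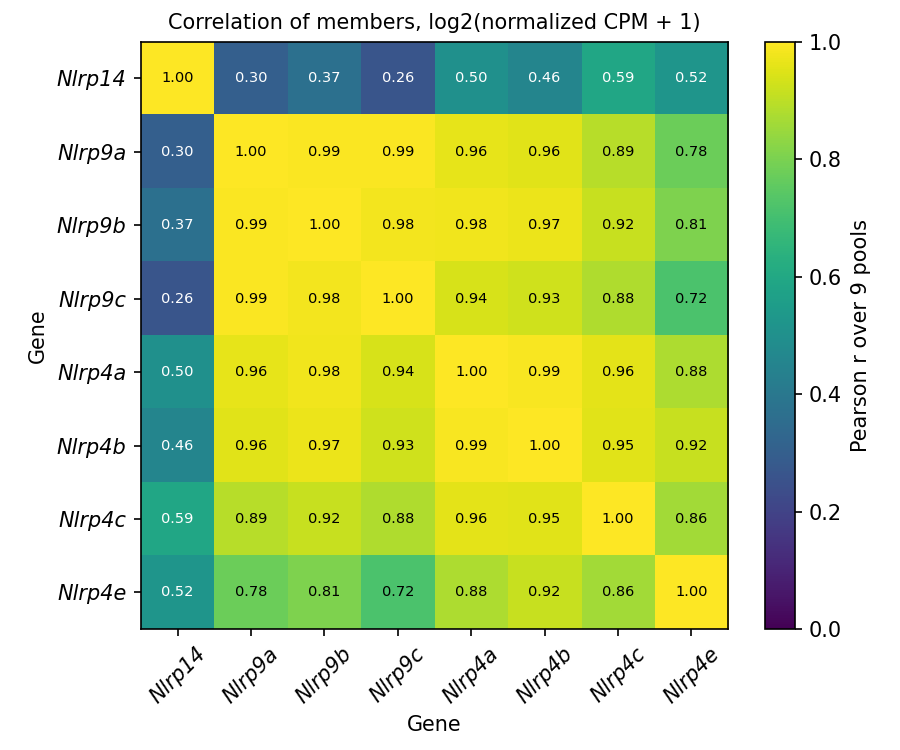
Pearson's r between the 8 genes over the 9 pools, on the log2(normalized CPM + 1) scale. The 7 genes other than Nlrp14 form a block of high values (0.72 to 0.99), and the row of Nlrp14 is lower (0.26 to 0.59).

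Because scaling cancels within a sample, the ratios between the genes were compared as well. This comparison was chosen after the levels had been seen. The UMIs of the 3 Nlrp9 genes summed, divided by those of the 4 Nlrp4 genes, gave 1.28, 1.29 and 1.18 in XX, 1.83, 1.73 and 1.7 in XO pools, and 1.6, 1.53 and 1.56 in XY samples. The means were 1.25 ± 0.0584, 1.75 ± 0.065 and 1.56 ± 0.0316 (SD, n = 3 each). All XX samples were below all XY samples, and these were below all XO samples. The exact permutation test among genotypes gave p = 0.00357 (two-sided, unadjusted), the smallest the 280 divisions allow. On the log2 scale the ratio in XX oocytes was lower by 0.49 than in XO and by 0.32 than in XY oocytes. XO1, which stood apart in level, did not stand apart in this ratio, and without it the log2 difference of XX against XO was −0.46.

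Single pairs of genes were compared in the same way. Of the 28 possible pairs among the 8 genes, 12 combine an Nlrp9 with an Nlrp4 gene, and each of these 12 had an unadjusted p below 0.05 by the exact permutation test, against 5.53% of all ratios between one of the 8 genes and another tested gene. Of the other 16 pairs, within a family or with Nlrp14, 0 did. The 5.53%, and the shares of such ratios given below, cover all tested genes, whether or not they vary with the 8. They are not matched to pairs of genes that rise and fall together. Adjusted over the 28 pairs, 0 were below 0.05. The 12 ratios share their genes and are not independent of each other.

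In all 12 the XX samples were below the XO samples without overlap, as was the case, in either direction, for 9.89% of the ratios to other genes. In 10 of 12 the XX samples were also below the XY samples without overlap, against 17%, and in 3 of 12 the XY samples below the XO samples, against 3.78%. The ratio of Nlrp9a to Nlrp4a, which are neighbours on the chromosome, was 0.351, 0.355 and 0.342 in XX, 0.556, 0.466 and 0.441 in XO pools, and 0.417, 0.406 and 0.412 in XY samples (exact permutation p = 0.00357). The ratio of Nlrp9c to Nlrp4c was 11.8, 12.9 and 13.3 in XX, 23, 17.8 and 24.4 in XO pools, and 16.7, 15.6 and 16.8 in XY samples (exact permutation p = 0.00357). In both, the 3 genotypes were separate, and these were the only 2 of the 28 pairs for which this held.

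Ratios within a family had p above 0.05, though some of them did not overlap between genotypes either. The largest ratio over the smallest across the 9 samples was 1.2 to 1.39 in the 3 pairs of Nlrp9 genes, 1.22 to 2.3 in the 6 pairs of Nlrp4 genes and 1.51 to 2.97 in the 12 pairs between the families, so these ranges overlapped. In 2 of the 3 Nlrp9 pairs, those with Nlrp9c, the XX samples differed from the XY samples without overlap. The ratio of Nlrp9a to Nlrp9c was 0.382–0.409 in XX against 0.336–0.373 in XY samples. Of the 6 Nlrp4 pairs, 2 did not overlap between XX and XO samples and 3 did not between XX and XY samples, each of them a pair with Nlrp4e. The ratio of Nlrp4a to Nlrp4e was 21.1–24.7 in XX, 29.1–39.7 in XO pools and 26.6–47.1 in XY samples (exact permutation p = 0.0964). The flattest pair of each family overlapped among all genotypes. The ratio of Nlrp9a to Nlrp9b was 0.408–0.461 in XX, 0.452–0.491 in XO pools and 0.451–0.483 in XY samples (exact permutation p = 0.154). The ratio of Nlrp4a to Nlrp4b was 1.88–1.97 in XX, 1.81–2.16 in XO pools and 1.94–2.22 in XY samples (exact permutation p = 0.236). The ratio of Nlrp14 to Nlrp4a was 9.6–10.2 in XX samples but ranged from 3.12 to 11.4 among XO and from 6.21 to 11.3 among XY samples (exact permutation p = 0.996), with XO1 and XY1 at the low ends.

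**Figure D4:**
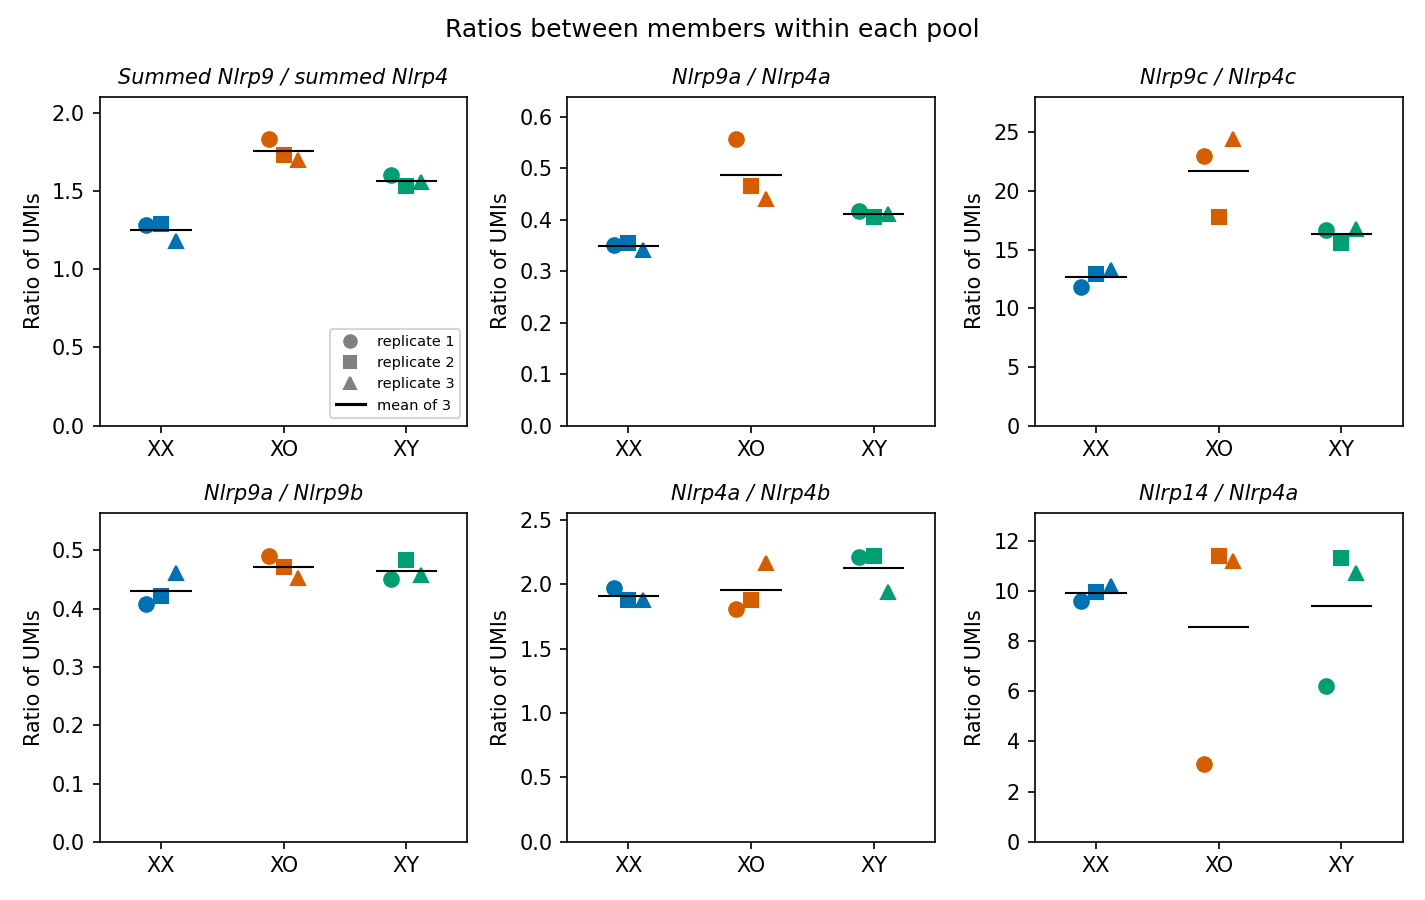
Ratios of UMIs between genes within each pool, by genotype, with a bar at the mean of 3 and the replicate number as the shape. The summed Nlrp9 to summed Nlrp4 ratio (1.18 to 1.29 in XX, 1.7 to 1.83 in XO, 1.53 to 1.6 in XY) and the 2 ratios beside it separate the genotypes, whereas the ratios of the lower row overlap. No other pair of the 28 separated all 3 genotypes.

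Other maternal NLRP genes were compared as a list. Of Nlrp2, Nlrp4f and Nlrp5, which encode proteins of the subcortical maternal complex or its surroundings, 0 of 3 passed in any comparison. Nlrp4f was at 9719 normalized CPM in XO1 against 2140 and 2215 in XO2 and XO3, the pattern of the Nlrp9 and Nlrp4 genes, whereas Nlrp5 was at 2605 in XO1 against 3859 and 4843. The Nlrp4 copies annotated as pseudogenes were rare, with a mean of 202 for Nlrp4g and 0.0700 normalized CPM for Nlrp4d.

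The partners of the complex without an NLR domain formed a separate list. Of Ooep, Tle6, Khdc3, Padi6 and Zbed3, 3 of 5 were lower in XX than in XO oocytes (Ooep, Khdc3 and Padi6), and the same 3 were lower in XY than in XO oocytes, against 16.7% and 8.24% of all tested genes in those directions. None passed between XX and XY oocytes. Padi6, which encodes an enzyme-like protein of the oocyte cytoplasmic lattices, was at 212, 7273 and 16520 in XO1 to XO3, and at 535 to 2312 normalized CPM in the XX and XY samples. XO1 was thus the lowest sample for Padi6 and the highest for the 7 Nlrp9 and Nlrp4 genes. Khdc3, which encodes the complex protein FILIA, was at 61.1, 52.7 and 66.6 in XO and at 22.8 to 39.2 normalized CPM in all other samples, a log2 fold change of −0.99 of XX against XO (adjusted p = 0.203 by edgeR). Zbed3 was at 1412 and Tle6 at 93.2 normalized CPM on average, and neither passed.

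Among 8 oocyte transcription factors, 7 were tested. Of these, 1 of 7 was lower in XX than in XO oocytes, against 16.7% of all tested genes. In XY than in XO oocytes 2 of 7 were lower, against 8.24%. Nobox, a homeodomain factor of early folliculogenesis, was lower in XX than in XO oocytes (−2.85, adjusted p = 0.203 by edgeR) and in XY than in XO oocytes (−2.38, adjusted p = 0.485 by edgeR). It was at 56.4, 522 and 1138 in XO1 to XO3, and at 51.6 to 185 normalized CPM in XX and XY samples. Gtf2a1l was lower in XY than in XO oocytes (−1.91). Of the other factors, Tbpl2 and Lhx8 had means of 33.3 and 23.4 normalized CPM and did not pass.

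Of 23 genes for immune NLR proteins and inflammasomes, 17 were in the counts and 6 were tested, of which 0 passed in any comparison. The highest were Naip1, at a mean of 81.3, Nlrc3, at 39.0, and Il18, at 11.1 normalized CPM. Nlrp3, Pycard and Casp1, core parts of the inflammasome, had means of 0.871, 0.805 and 0.0964 normalized CPM. Of the reported partners of NLRP14, Uhrf1 had a mean of 81.5 normalized CPM and did not pass, and Slc8b1, at 1.64, was not tested.

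Within 100 kb of the 8 genes lay 35 further genes of the counts, of which 6 were tested. Only Igsf23, 40709 bp from Nlrp9b, passed. It was lower in XX than in XO oocytes (−2.84, adjusted p = 0.203 by edgeR) and in XY than in XO oocytes (−2.07, adjusted p = 0.494 by edgeR). This was 1 of 6 genes in each comparison, against 16.7% and 8.24% of all tested genes in those directions. Igsf23 passed in no other comparison. It was at 1.55, 26.4 and 42.9 normalized CPM in XO1 to XO3 and at 3.15 to 9.96 in the other samples. Ceacam20, 361 bp from Nlrp9b, was at 18.1 in XO1, the second lowest of all samples, against 55.8 and 66.0 in XO2 and XO3, so that these neighbours did not share the high level of Nlrp9b in XO1.

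The genes whose levels over the 9 samples were most like those of the 8 genes were searched among 7268 genes whose mean was 10 normalized CPM or more. Closest to the summed 8 genes were Chek1 (Pearson's r = 0.99), Gm45277 (0.979) and Nlrp2 (0.977). Closest to Nlrp14 were Enpp5 (0.944), Zp4-ps (0.925) and Tcl1b1 (0.9), and no gene exceeded 0.95. By contrast, 240 genes exceeded 0.95 with Nlrp9a, 249 with Nlrp9b and 245 with Nlrp9c, led by Rchy1, Nlrp4f and Emc2 at 0.997, 0.995 and 0.996. For the Nlrp4 genes the number was 163 with Nlrp4a, 126 with Nlrp4b, 37 with Nlrp4c and 4 with Nlrp4e, led by Gm13084 (0.995), Smim15 (0.994), Arhgap15os (0.994) and Gm14288 (0.966). Without XO1 and XY1 the r values of the genes named here were 0.91 to 0.992.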

How the data were processed

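Pools of oocytes from XX, XO, and XY females (3 each) were analysed. Reads (stranded, paired) had been aligned by the authors with HISAT2 (GRCm38, GENCODE), and they deposited 5′ UMI counts per gene with 79 ERCC spike-ins. One further entry that names no gene held 0 UMIs. They also deposited a normalized signal (here normalized CPM) and log2 values with batch effects regressed out. Recomputed from counts, gene library size and the TMM factor of the spike-ins, normalized CPM differed by at most 5.01e-15 (relative). The XO column without a number was taken as replicate 1, whose description carries none.

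Counts were tested with edgeR 4.0.16 (filterByExpr, all 9 samples, 1 mean per genotype) in 3 contrasts at an unadjusted p below 0.05. Alternatives used DESeq2 1.42.0, limma 3.58.1, sva 3.50.0, other scalings, a replicate block and omission of each sample. Shares and ratios were compared by exact permutation of samples (Python 3.11.15). Sequences came from GENCODE vM21 transcripts and RefSeq promoters, and coding sequences were aligned with Biopython 1.88. Depth was 2130145 to 3157338 gene UMIs per sample. Nothing in the labels says whether pools share females, so p-values measure only the spread between pools.

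The genes and lists were chosen with earlier results of these data known. Named are the 8 genes, from each list those called in any contrast and the 3 of highest mean, the 3 most similar genes for each (leading ones printed), and called genes within 100 kb. Others (Ceacam20, the inflammasome genes Nlrp3, Pycard and Casp1, and the Gm copies) were named after their values were seen.

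Whether replicate numbers pair the samples was checked through the correlation, over genes, of deviations from genotype means. It was 0.83, 0.278 and 0.773 for XY and XO samples of the same number, which were taken as paired because all exceeded 0.1. For the same numbers it was 0.468, −0.447 and 0.679 between XX and XO samples. Between XX and XY samples it was 0.435, −0.0595 and 0.726. Samples of different numbers reached 0.721 (XY3 and XO2) and 0.641 (XX3 and XO2), so these values do not establish a pairing.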

Additional observations from a re-analysis of the deposited data

How the results depend on the processing

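The ratio of summed Nlrp9 to summed Nlrp4 UMIs kept its direction when any sample was left out, with log2 differences of −0.51 to −0.45 for XX against XO, −0.35 to −0.28 for XX against XY and −0.19 to −0.13 for XY against XO. Fold changes of single genes were less stable, and the causes were not tested. In each comparison the number of the 8 genes called was 0 to 2 (XX against XO), 0 to 1 (XX against XY) and 0 to 1 (XY against XO) when 1 sample was left out, with every call made without XO1, and 1 share then passed without XO1 (0 to 1). Spike-in totals as scaling called 1 of 8 genes, Nlrp14 (1.30), XX against XO, and 1, Nlrp4e (1.52), XX against XY. DESeq2 with its own size factors called 1, Nlrp14 (0.85), XX against XO. The fit of XX and XY samples only called 1, and limma-voom with sva called 4, 3 and 6 genes. Centred log ratios in place of shares gave 2 of 8, Nlrp9c and Nlrp9a, with p below 0.05, and 0 after adjustment.

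All genes called, 1986, 638 and 1092 in the 3 comparisons, became 343, 284 and 136 with spike-in totals, 3953, 1214 and 2735 without the filter, and 4222, 2580 and 3086 with sva. They were 1051 (XX against XY) and 538 (XY against XO) with only the genotypes compared. They ranged from 1008 to 4279, 384 to 1283 and 425 to 3720 when 1 sample was left out, with the highest counts without XO1. After adjustment edgeR called 0 (XX against XO), 9 and 4 genes. TMM on the genes moved the median of all tested genes XX against XO from −0.46 to −0.11, and spike-in totals moved it to 0.42.

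XX against XO, Nlrp4a turned to 0.03 with TMM, 0.76 with spike-in totals and 0.08 with the replicate block. Nlrp4b turned to 0.75 and Nlrp9a, Nlrp9b and Nlrp9c to 0.21, 0.35 and 0.19 with spike-in totals. XX against XY, Nlrp9a turned to 0.03 with TMM and 0.68 with spike-in totals, and Nlrp9b to 0.15 and 0.77, as well as 0.12 with DESeq2's own factors and 0.11 with sva. Nlrp9c turned to 0.51 with spike-in totals. XY against XO, Nlrp4c turned to 0.02 with TMM and 0.07 with spike-in totals.

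By the rule described above, the replicate numbers were taken as paired for XY and XO samples only. High correlations also occurred between different numbers (0.721 for XY3 and XO2), so a pairing is not established. With the replicate block 0 of the 8 genes were called in any comparison, and all genes called were 1007 XX against XY and 1827 XY against XO (1751 with TMM). Under the block Nlrp4b turned to 0.10 XX against XO, Nlrp9a to 0.01 and Nlrp9b to 0.12 XX against XY, and Nlrp4c to 0.09 XY against XO. Under the block with TMM, Nlrp4a, Nlrp4b and Nlrp9b turned to 0.43, 0.45 and 0.08 XX against XO, Nlrp9a, Nlrp9b and Nlrp9c to 0.22, 0.32 and 0.05 XX against XY, and Nlrp4c to 0.24 XY against XO.

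When 1 sample was left out, log2 fold changes that turned ranged as follows. XX against XO these were −0.54 to 0.79 for Nlrp4a, −0.60 to 0.86 for Nlrp4b, −0.32 to 0.95 for Nlrp4c, −0.15 to 1.51 for Nlrp4e, −1.15 to 0.42 for Nlrp9a, −0.96 to 0.54 for Nlrp9b and −1.11 to 0.25 for Nlrp9c. XX against XY these were −0.19 to 0.55 for Nlrp4a, −0.16 to 0.50 for Nlrp4c, −0.43 to 0.33 for Nlrp9a, −0.31 to 0.49 for Nlrp9b and −0.54 to 0.15 for Nlrp9c. XY against XO these were −0.77 to 0.69 for Nlrp4a, −0.93 to 0.59 for Nlrp4b, −0.46 to 0.84 for Nlrp4c, −0.95 to 0.71 for Nlrp4e, −1.12 to 0.56 for Nlrp9a, −1.09 to 0.56 for Nlrp9b and −0.92 to 0.52 for Nlrp9c. Nlrp14 stayed positive in all 3 comparisons under every setting tried, from 0.09 at the lowest. With 3 pools per genotype and 1 pool apart, the spread between pools, not counting error, limits these comparisons.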
